A study of Mus musculus with 10 samples.

Results

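Heat shock proteins and related chaperones were measured in cultured mouse ureteric buds with and without glial cell line-derived neurotrophic factor (GDNF). The 5 genes described are Hspa1b, Hspb1, Hsph1, Hspe1 and Dnajc3. They were found through the Entrez identifier or symbol in the authors' deposited tables of changed probe sets, which name 634 genes in all, and they have 10 probe sets there. A probe set is the group of short oligonucleotides that reports 1 transcript on an Affymetrix array. All 5 genes are named on the 430A array (7 probe sets), and Hspa1b, Hsph1 and Hspe1 are also named on the U74Av2 array (3 probe sets). Because a name here comes only from the authors' list of changed probe sets, each of the 10 had already been selected for a difference between these same arrays.

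Buds were isolated from Swiss Webster embryos at E11.5 and kept in Matrigel for 16 h with GDNF at 100 ng/mL (plus GDNF) or without it (minus GDNF). Each array type carried 3 plus and 2 minus arrays, 10 arrays in 4 groups. An array received RNA amplified from a pool of about 5 to 6 batches of 30 to 40 buds, so a value stands for many embryos, and the number of arrays limits its precision. The labels do not say that pools came from separate cultures on separate days, so p-values measure the spread between these pools. The series text states that each chip had its own pooled samples, yet same-named arrays of the types deviated together from their group means (correlations 0.41 to 0.59 over 184 genes). The 2 minus arrays of a type deviate by equal and opposite amounts, so they give 1 correlation, 0.45, and not 2. Whether same-named arrays share RNA cannot be told from the sources used, so results over both types may rest on 5 samples and not 10. GDNF binds its co-receptor and the tyrosine kinase Ret on the bud, the epithelial tube from which the collecting ducts of the kidney arise.

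Chaperones bind proteins that are not yet folded or have lost their fold. In the cytosol, Hsp70 proteins such as Hspa1b cycle on and off their clients with ATP, J-domain proteins stimulate the cycle, and Hsp110 proteins such as Hsph1 exchange the nucleotide. Small heat shock proteins such as Hspb1 hold unfolded clients without ATP and also act on actin filaments. In mitochondria, Hspe1 forms the lid of the folding chamber built by Hspd1. In the endoplasmic reticulum, Dnajc3 (p58IPK) serves the resident Hsp70 and restrains the kinases that slow translation under stress. Heat shock transcription factors bind inverted repeats of the unit GAA upstream of many of these genes, and genes of the unfolded protein response can carry a different sequence, the ER stress element.

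Stretches of the promoters are shown because both genes measured lower with GDNF and 2 of the 3 measured higher carry heat shock sequences. All 5 genes had a window in the RefSeq promoter table (build GRCm38.p6), which spans 250 bases before to 50 after each annotated start. Letters searched were GAANNTTC (a head-to-head pair of heat shock units) and TTCNNGAA (a tail-to-tail pair), the latter also followed by NNTTC (3 units) or by NNTTC and then NNGAA (4 units). The ER stress element was searched as CCAAT, then any 9 bases, then CCACG, and CCAAT was also searched alone. Both strands were read, and the longer heat shock patterns contain the pairs. Capitals mark heat shock or ER stress matches, and each sequence runs 5′ to 3′ on the strand of the gene.
Hspa1b, chr17:34959239-34959438, minus strand, the 200 bases before the start: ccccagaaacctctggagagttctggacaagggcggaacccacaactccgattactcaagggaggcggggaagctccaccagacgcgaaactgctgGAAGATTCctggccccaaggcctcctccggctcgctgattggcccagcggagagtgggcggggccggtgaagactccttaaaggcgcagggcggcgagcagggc
Hspb1, chr5:135887719-135887918, plus strand, the 200 bases before the start: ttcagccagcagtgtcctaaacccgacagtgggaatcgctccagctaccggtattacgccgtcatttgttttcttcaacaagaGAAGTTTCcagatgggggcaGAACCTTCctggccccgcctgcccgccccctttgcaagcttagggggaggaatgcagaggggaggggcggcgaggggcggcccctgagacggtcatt
Dnajc3, chr14:118937732-118937931, plus strand, the 200 bases before the start: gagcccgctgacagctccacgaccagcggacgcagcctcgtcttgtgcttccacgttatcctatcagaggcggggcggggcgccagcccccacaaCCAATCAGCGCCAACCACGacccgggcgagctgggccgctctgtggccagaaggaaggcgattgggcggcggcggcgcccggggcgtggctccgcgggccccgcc
Hspe1, chr1:55088053-55088082, plus strand, around its match: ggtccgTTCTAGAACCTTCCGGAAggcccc
Hsph1, chr5:149636287-149636308, minus strand, after its first start: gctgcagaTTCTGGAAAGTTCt

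Hspb1 held 2 head-to-head pairs, beginning 117 and 97 bases before its start, and Hspa1b held 1, beginning 104 bases before. Hspe1 held 4 alternating units in a row, beginning 89 bases before its start. The same 4 units, read on the other strand, lie in a window of Hspd1, the gene of its partner, which is transcribed away from Hspe1. Hsph1 has 2 annotated starts in the table with overlapping windows, so the same sites are counted from each start. It held 3 units beginning 37 bases after the first start, which is 16 after the second. A tail-to-tail pair began 33 bases before the first start, which is 54 before the second. Dnajc3 held none of the heat shock patterns and 1 ER stress element, beginning 105 bases before its start. Among the 32851 windows of this length, 7.86% held a head-to-head pair, 8.52% a tail-to-tail pair, 0.603% the 3 units, 0.0152% the 4 units, 0.119% the ER stress element and 37.4% CCAAT. These are matches of letters and were not tested for binding.

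**Figure D1:**
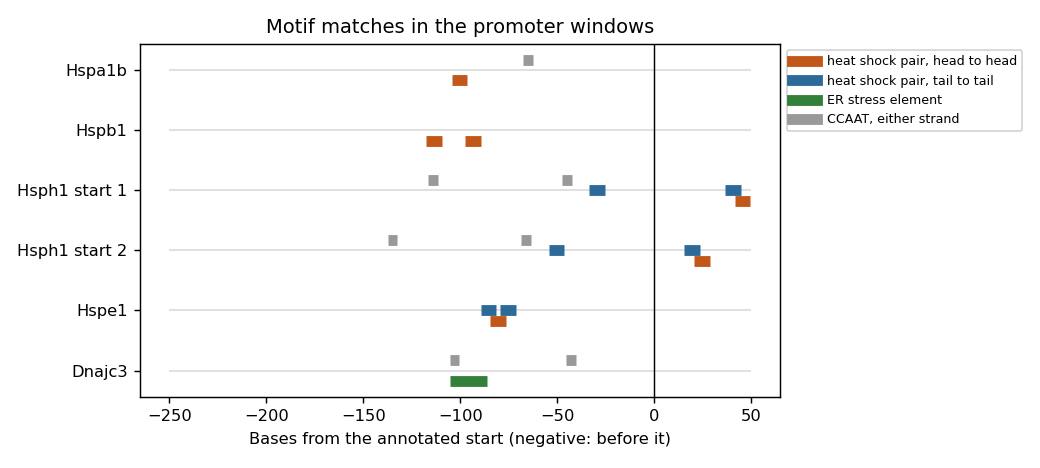
Positions of motif matches in the promoter windows of the 5 genes, with the distance from the annotated start on the x axis in bases and 1 line per start. Heat shock pairs appear in the windows of Hspa1b, Hspb1, Hsph1 and Hspe1, and the ER stress element in that of Dnajc3, 105 bases before its start.

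The comparison asked how each chaperone differed between buds grown with and without GDNF. In a fit over both array types, the inducible Hsp70 gene Hspa1b fell with GDNF. The Hsp110 gene Hsph1 and the chaperonin lid gene Hspe1 rose in it. That fit held only genes the authors had selected for change on both types. Of its 184 genes 183 passed, so passing it does not set a gene apart. Within a type Hspa1b, Hsph1 and Hspe1 did not pass limma's threshold (adjusted p = 0.13 to 0.34). Hspb1 and Dnajc3, named on 430A only, could not enter that fit. On 430A Hspb1 was measured 2.24-fold lower and Dnajc3 1.62-fold higher with GDNF. Neither passed limma's threshold there (adjusted p = 0.054 and 0.082). The 2 lower genes encode chaperones of the cytosol, and the 3 higher genes act in the cytosol, the mitochondrion and the endoplasmic reticulum.

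Before the genes are taken in turn, some arrays stood apart. Minus array 2 had the lowest mean correlation with the other arrays of its type over the tested probe sets, 0.939 on U74Av2 and 0.943 on 430A, against 0.964 to 0.970 for the other arrays. For the Gapdh control probe sets, the 3′ signal divided by the 5′ signal, a reading of RNA integrity, was 1.60 and 1.74 on minus array 2 of the 2 types. It was 1.46 and 1.52 on plus array 3, 1.22 and 1.19 on plus array 1, 1.06 and 1.12 on plus array 2, and 1.10 and 1.09 on minus array 1. Same-named arrays of the types thus had similar ratios, and whether they share RNA was not tested. Median intensity lay between 211 and 248 on U74Av2 and between 281 and 321 on 430A. Fewer cells of a type and less RNA per cell cannot be told apart in pooled buds.

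Hspb1 encodes the mouse small heat shock protein Hsp25. On 430A its probe set 1422943_a_at measured 1682, 1959 and 1785 on plus arrays 1 to 3 and 4074 and 4016 on the minus arrays. The minus arrays lay close together and far above every plus array, at 4045 ± 40.6 (SD, n = 2) against 1809 ± 140.0 (SD, n = 3). Probe set 1425964_x_at measured 1003, 1228 and 1138 with GDNF and 2516 and 2471 without. The pair of probe sets had nearly equal changes, log2 -1.16 ± 0.11 SE and -1.16 ± 0.12 SE, and plus array 2 was the highest of the plus arrays on each. By the array maker's naming, the ending x marks a probe set with probes that may also match other transcripts. The level with GDNF was 44.7% and 45.0% of that without. These were the 3rd and 4th largest falls by log2 change among the 19521 probe sets tested on 430A. Limma gave adjusted p = 0.054 for each, and the authors' deposited table lists a signed fold of -2.23 for both, with the bound nearer to no change at -2.03 and -2. Hspb1 is not named on U74Av2 here.

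Hspa1b encodes the inducible Hsp70 of the cytosol. On U74Av2 it measured 410, 353 and 518 on plus arrays 1 to 3 and 655 and 812 on minus arrays 1 and 2. On 430A the values were 318, 287 and 404 with GDNF and 513 and 784 without. Every plus array lay below every minus array of its type. In each group of each type the highest value belonged to the array with the highest Gapdh ratio, plus array 3 or minus array 2, and the 3 plus arrays kept the same order by both measures. Means were 427 ± 83.8 (SD, n = 3) against 733 ± 111 (SD, n = 2) on U74Av2 and 336 ± 61.0 against 649 ± 191 on 430A. The log2 change was -0.79 ± 0.21 on U74Av2 (adjusted p = 0.34) and -0.93 ± 0.23 on 430A (adjusted p = 0.19), the 16th and 14th largest falls by log2 change on these types.

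Over both types Hspa1b fell by 0.86 ± 0.15 on the log2 scale (limma, adjusted p = 0.0065), a 1.82-fold lower level. With the Gapdh ratio as a covariate, a fit chosen after the data were seen, it stood at log2 -0.74 (adjusted p = 2.7e-04). Without plus array 3 and minus array 2 of both types it stood at -0.77 (adjusted p = 0.0085). Without limma's moderation of the variance its adjusted p was 0.12. With same-named arrays of the types averaged to 5 samples, Hspa1b had adjusted p = 0.021 by limma. Hspa1b and its neighbour Hspa1a are near-identical copies, and a probe set named for Hspa1b may also report Hspa1a. Their promoter windows had 296 of 300 bases alike, but transcript and probe sequences were not compared, so this was not tested.

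**Figure D2:**
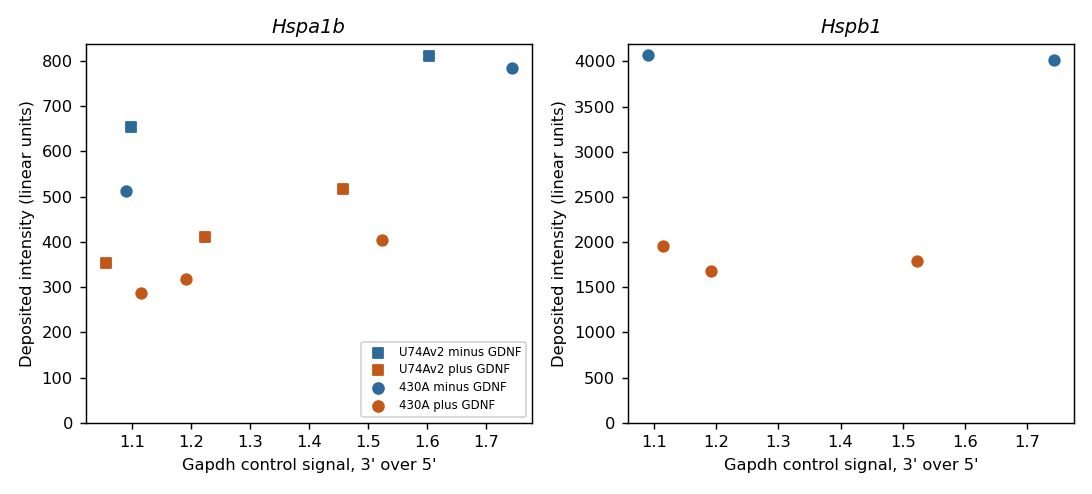
Deposited intensity of Hspa1b (both array types) and Hspb1 (430A, 1422943_a_at) on the y axis against the 3′ over 5′ signal ratio of the Gapdh control on the x axis, 1 point per array. Hspa1b was higher on arrays with a higher ratio within each group, while the Hspb1 values without GDNF, 4074 and 4016, hardly differed between ratios of 1.09 and 1.74.

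Hsph1 encodes Hsp105, the nucleotide exchange factor that works with Hsp70. Its U74Av2 probe set measured 1355, 969 and 1277 on plus arrays 1 to 3 and 778 and 676 on the minus arrays. On 430A it measured 1284, 1113 and 1113 with GDNF and 826 and 691 without. Plus array 1 was the highest and minus array 2 the lowest on both types, and the groups did not overlap. The mean was 1.65-fold higher with GDNF on U74Av2 (log2 0.71 ± 0.20, adjusted p = 0.34) and 1.54-fold higher on 430A (log2 0.63 ± 0.13, adjusted p = 0.14). Over both types Hsph1 rose by log2 0.67 ± 0.11 (limma, adjusted p = 0.0049). Without plus array 3 and minus array 2 of both types it was at log2 0.55 with adjusted p = 0.32. With same-named arrays of the types averaged to 5 samples, Hsph1 had adjusted p = 0.041 by limma. Hsph1 and Hspa1b, whose proteins act in 1 cycle, changed in opposite directions.

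Hspe1 encodes Hsp10, the mitochondrial chaperonin lid. The U74Av2 probe set measured 2698, 2590 and 3088 on plus arrays 1 to 3 and 1819 and 1727 on the minus arrays. On 430A the brighter probe set, 1450668_s_at, measured 3330, 3415 and 3683 with GDNF and 2536 and 2229 without. The other, 1422579_at, measured 1014, 946 and 1002 with GDNF and 721 and 527 without. All plus arrays exceeded all minus arrays on each of the 3 probe sets, and minus array 2 was the lowest on each. The changes were log2 0.65 ± 0.15 on U74Av2 (adjusted p = 0.27) and, on 430A, 0.55 ± 0.11 (adjusted p = 0.13) and 0.68 ± 0.15 (adjusted p = 0.16). Over both types Hspe1 rose by log2 0.60 ± 0.09 (limma, adjusted p = 0.0021), 1.51-fold. With same-named arrays of the types averaged to 5 samples, its adjusted p was 0.054. For Hspe1 on U74Av2, the authors' deposited table gives means of 2428 without and 3637 with GDNF, above those of the deposited intensities (1773 and 2792), and a signed fold of 1.5. Such a mismatch on U74Av2 was not particular to Hspe1. The authors' means without and with GDNF were 812 and 447 for Hspa1b, against 733 and 427. For Hsph1 they were 816 and 1309, against 727 and 1200. They lay lower for the stromal marker Acta2, at 307 and 186 against 606 and 452.

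Dnajc3, the co-chaperone of the endoplasmic reticulum, was the dimmest of the 5 in the file, though levels of different probe sets cannot be ranked as amounts of RNA. On 430A it measured 300, 262 and 284 on plus arrays 1 to 3 and 177 and 171 on the minus arrays. The minus arrays lay not far above the intensity floor of 143 that was set before taking logs. Plus arrays averaged 282 ± 18.7 (SD, n = 3) and minus arrays 174 ± 4.65 (SD, n = 2). The change was log2 0.70 ± 0.10 with adjusted p = 0.082 by limma, and with the floor at the 40th percentile it was 0.26. Dnajc3 is not named on U74Av2 here.

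**Figure D3:**
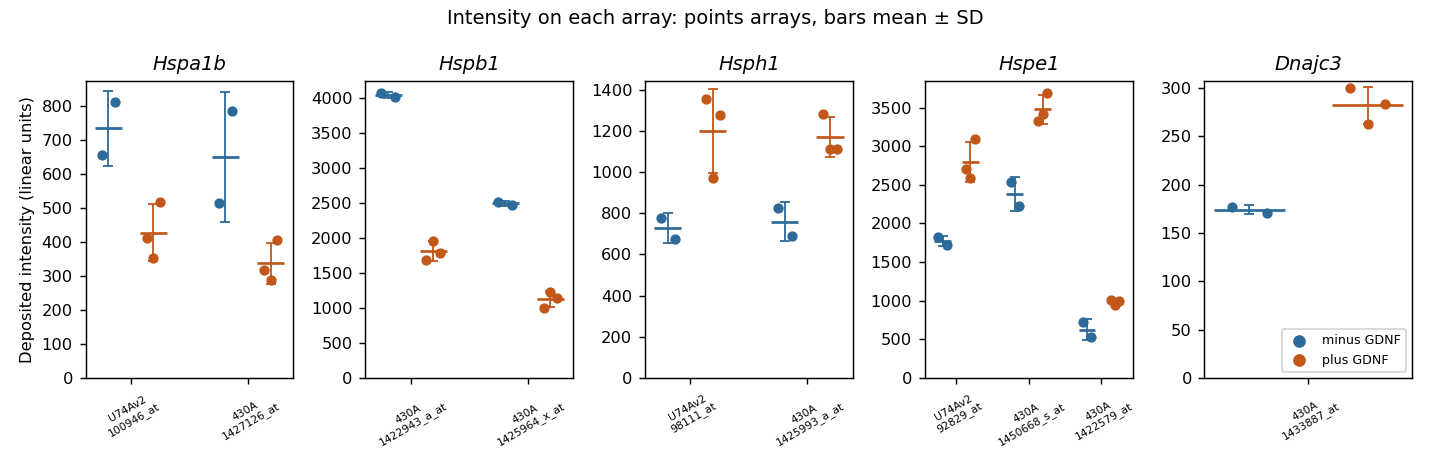
Deposited intensity of each of the 10 probe sets on every array, with 1 panel per gene, points for arrays and bars for the mean ± SD (n = 3 plus, n = 2 minus). Hspa1b and Hspb1 lie lower with GDNF on every probe set, and Hsph1, Hspe1 and Dnajc3 higher, with no overlap between groups.

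Read against all probe sets, these differences were large but not past the threshold within a type. Limma with Benjamini-Hochberg adjustment called 1 of 10588 probe sets on U74Av2 (0.00944%) and 0 of 19521 on 430A (0%), and none of the 10 described. At an adjusted p under 0.1, which 0.0472% of U74Av2 and 1.01% of 430A probe sets met, the described ones were both of Hspb1 and that of Dnajc3. An unadjusted p under 0.05 was reached by 931 U74Av2 probe sets (8.79%, with 7.77% higher and 1.02% lower with GDNF) and by 2588 on 430A (13.3%, with 8.21% higher and 5.05% lower), the 10 described among them. The groups did not overlap for 22.3% of tested probe sets on U74Av2 (17.3% higher, 4.92% lower) and 29.8% on 430A (14.9% higher, 14.9% lower), and for all 10 described. The authors' filter had kept 2.50% of the U74Av2 and 3.05% of the 430A probe sets, the 10 included, so their counts by these measures were set by the selection. In the fit over both types 183 of the 184 genes named on both passed (99.5%), and 3 of 3 chaperones described is near that background.

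The exact permutation test of plus and minus labels within each type gave p = 0.02 (two-sided) for Hspa1b, Hsph1 and Hspe1, the smallest that its 100 arrangements allow. Those arrangements treat same-named arrays of the types as independent, and with their labels moved together the exact test allows 10 arrangements and gave p = 0.2 for each. For Hspb1 and Dnajc3, with 10 arrangements on 1 type, the exact test gave p = 0.2, also the smallest possible, so a test of 10 arrangements cannot reach 0.05. The selection by the authors' filter applies to these values too. The change did not pass a test of difference between the array types for any of the 3 genes on both, by limma's interaction. The 430A less U74Av2 difference was log2 -0.14 ± 0.31 SE for Hspa1b, -0.08 ± 0.24 for Hsph1 and -0.11 ± 0.19 for Hspe1 (adjusted p = 0.93, 0.93 and 0.90), and 0.543% of the genes named on both passed it.

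**Figure D4:**
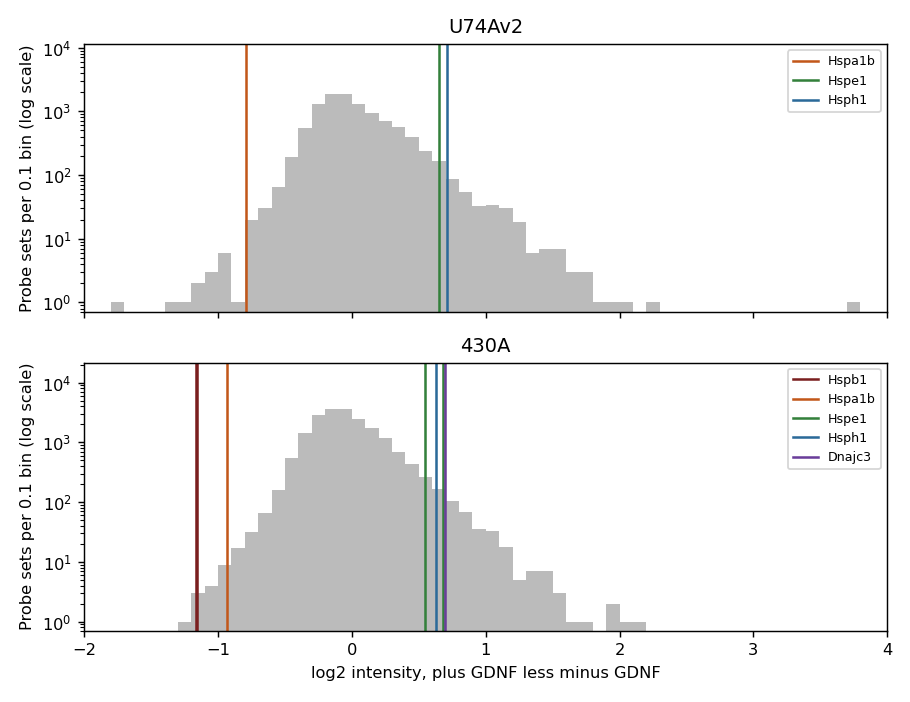
Distribution of the log2 change (plus GDNF less minus GDNF) over all tested probe sets of each array type, with counts per bin of 0.1 on a log axis and a vertical line for each described probe set. Hspb1 lies at the lower end on 430A, while the higher genes lie on the upper shoulder and not at its end.

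The rises sat differently in that distribution from the falls. Hsph1 ranked 273rd from the largest rise on U74Av2 and 406th on 430A, Hspe1 ranked 362nd on U74Av2 and 315th and 572nd on 430A, and Dnajc3 ranked 294th on 430A. Hspb1 and Hspa1b stood within the 16 largest falls of each type on which they are named. All had been selected for change on these same arrays, so a place far from the middle was partly set by that selection. Large falls were also fewer than large rises on U74Av2, where Hspa1b at log2 -0.79 ranked 16th and Hsph1 at 0.71 ranked 273rd. Of the genes named on 430A, 76.6% were higher with GDNF, and of those named on U74Av2, 87.6%.

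Other chaperone and protein quality genes were counted from lists of 114 genes, of which 13 had a named probe set on either type. Of the 13, 11 were higher with GDNF on every type that named them, and 2, Hspa1b and Hspb1, were lower. None passed within a type, while Dnajc9 and Hspa4 joined Hspa1b, Hsph1 and Hspe1 in passing over both types. As 99.5% of the genes named on both passed that fit, these 5 of 5 are near the background. Of all genes named, 76.6% on 430A and 87.6% on U74Av2 were higher with GDNF. The median change over all tested probe sets was log2 -0.04 on U74Av2 and -0.07 on 430A. The list medians below cannot be read against it, since only probe sets selected for change carry a name.

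Of the 56 listed heat shock and cytosolic genes, 6 were named on 430A (4 higher, 2 lower, median log2 0.67) and 4 on U74Av2 (3 higher, 1 lower, median 0.65). Hspa4, an Hsp110 protein related to Hsph1, rose over both types by log2 0.66 ± 0.12 (limma, adjusted p = 0.0079). Its U74Av2 values were 1627, 1412 and 1953 with GDNF and 1016 and 1142 without. Dnajc9, a J-domain protein that also handles histones, rose by log2 0.71 ± 0.10 (limma, adjusted p = 0.0010). Dnajc2, a J-domain protein that works at the ribosome, was 1.68-fold higher on 430A (log2 0.74 ± 0.16, adjusted p = 0.15).

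Of the 12 listed mitochondrial genes, 3 were named on U74Av2 and 2 on 430A, and all were higher with GDNF. Hspd1 (Hsp60), which forms the chamber that Hspe1 closes, measured 3791, 3164 and 3152 on the plus arrays of U74Av2 and 2290 and 2146 on the minus arrays. Its log2 change of 0.60 ± 0.15 (adjusted p = 0.33) lay within 1 SE of that of Hspe1 there, 0.65 ± 0.15. Hspa9, the Hsp70 of the mitochondrial matrix, was at log2 0.61 ± 0.16 (adjusted p = 0.32), and the matrix protease subunit Clpp at 0.42 ± 0.09 on 430A (adjusted p = 0.16). Neither these nor Hspd1 passed.

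Of the 32 listed genes of the endoplasmic reticulum and its unfolded protein response, Dnajc3 and Chac1 were named, on 430A. Chac1, which breaks down glutathione and is induced through the factor ATF4, was at log2 0.57 ± 0.10 (adjusted p = 0.11). The prefoldin subunit Vbp1 was the 1 gene named of the 14 for the cytosolic chaperonin and prefoldin, at log2 0.42 ± 0.09 (adjusted p = 0.16). No probe set carried the name of the remaining 101 listed genes, which were not analysed.

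**Figure D5:**
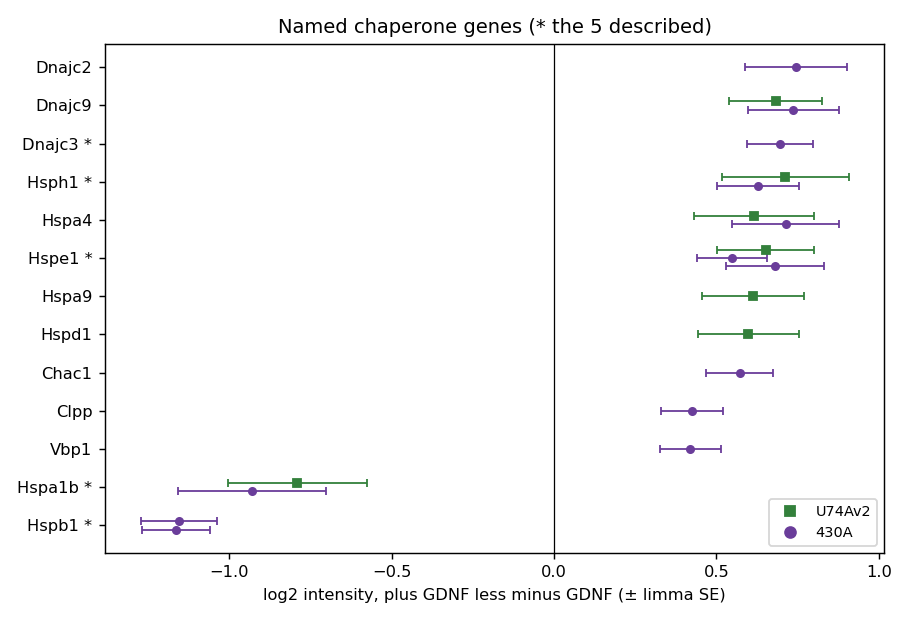
The log2 change (plus GDNF less minus GDNF) with limma's SE for every probe set of the 13 named chaperone genes, squares for U74Av2 and circles for 430A. Hspa1b and Hspb1 lie below 0 and the other 11 genes between 0.42 and 0.74.

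Genes with the nearest profile were sought among the named genes, by the root mean square difference of log2 values centred within each array type. Hspa1b was nearest to Ncam1 (0.16) and Tmprss2 (0.17), then Parm1 (0.22), over 10 arrays and 183 candidates. Hspb1 was nearest to Dkk1 (0.13), Ppp1r3c (0.14) and Dlk1 (0.14) over the 5 arrays of 430A and 539 candidates. For Hsph1 the nearest were Cse1l (0.091), Dek (0.094) and Ezh2 (0.095), and for Hspe1 Xpot (0.058), Cnbp (0.063) and Adk (0.079), each over 10 arrays. Dnajc3 was nearest to Srsf1 (0.029), Ccne2 (0.031) and Ipo7 (0.038) on 430A. Distances over 5 and over 10 arrays are not comparable, and all candidates had been selected for change.

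Markers of other cell types were counted among the named genes, which the authors had selected for change. On 430A, 3 of 13 listed stromal markers were named, all lower with GDNF, and their summed intensity ran from 1464 to 2018 on the plus arrays and from 2796 to 2798 on the minus arrays. The 2 named of 10 mesenchymal markers were also lower, summing to 710 to 852 against 1122 to 1130. Of 16 bud epithelium markers 7 were named on 430A, 4 higher and 3 lower, with sums of 15846 to 16303 against 16934 to 17174. None of these passed limma's threshold on 430A. On U74Av2 the 3 named bud markers, Wnt11, Ret and Calb1, summed to 4339 to 5568 against 1711 to 2223. Wnt11 was the 1 probe set called on that type (limma, adjusted p = 0.011), with its 2 minus arrays below the floor. The 1 stromal marker, Acta2, measured 399 to 513 against 507 to 705, with overlapping groups. No named marker was at 0, and none of the 6 endothelial or 6 blood and macrophage markers was named. Their part in the chaperone differences was not tested.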

How the data were processed

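Samples were grouped by title. Per the labels, RNA was amplified by transcription in vitro with biotin as the label. The deposited value tables hold linear intensity for 12488 (U74Av2) and 22690 (430A) probe sets. How it was summarised and normalized is not given in the sources used. The authors' deposited comparison tables, made in dChip 1.3 per the series text, list 312 and 693 probe sets whose 90% bound on the fold exceeds 1.2 and whose means differ by over 100, with a signed fold (a score here) and its bounds. Names came from their Entrez identifiers, brought to current protein-coding symbols with RefSeq's GRCm38.p6 table, which left 292 and 661 probe sets with 1 gene (275 and 543 genes, 184 on both). Other probe sets are unnamed here.

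Intensities under the 20th percentile of each table (65.0 and 143) were set to it and log2 was taken. Control probe sets (66 and 64) and those never above the floor (1834 and 3105) were removed, so that 10588 and 19521 were tested. All 10 probe sets described passed this filter, none with an array below the floor. Linear models were fitted for each type with lmFit and eBayes of limma 3.58.1 in R 4.3.3. Tests were two-sided, and the threshold was 0.05 after Benjamini-Hochberg adjustment. For the fit over both types, each gene had its brightest named probe set of each type, array type was a term, and adjustment was over 10588 tests. Its variance was learned from genes selected for change, so its p-values may be too small. The fits were tested on simulated data. SE is limma's. The 5 genes, the lists and the tests were chosen with earlier results of these data known. Genes named in the text are the 5, the named members of the lists and the 3 nearest profiles of each. Alternatives were other normalizations, floors, filters and variance models, sample-number blocks, left-out arrays and averaged arrays.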

Additional observations from a re-analysis of the deposited data

How the results depend on the processing

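Each described probe set kept its direction under the alternatives that gave it a value, left-out arrays included. The filter on the median level removed Dnajc3. On U74Av2 limma called 1 probe set as reported, 0 with the floor at the 40th percentile (942 at an unadjusted p under 0.05), 4 above the median level, 2 with no filter, 3 with a trended robust variance, 5 at an adjusted p under 0.1 and 0 without any 1 array (529 to 2100 unadjusted). On 430A it called 30 with the floor at the 10th percentile, 149 above the median level, 48 with a trended robust variance and 198 at an adjusted p under 0.1. Alternatives chosen after the data were seen gave, with the Gapdh ratio as a covariate, 267 on U74Av2 and 134 on 430A and, without plus array 3 and minus array 2, 0 on U74Av2 (961 unadjusted). The causes were not tested. The Hspb1 probe sets (log2 -1.16 and -1.16) passed with the lower floor (adjusted p = 0.046), above the median level (0.019), with the trended robust variance (0.042), at the looser threshold (0.054) and with the Gapdh ratio (log2 -1.17 and -1.16, adjusted p = 0.040 and 0.043). With that ratio Hspa1b passed on U74Av2 (log2 -0.69, adjusted p = 0.040) and 430A (-0.79, 0.043), and Hspe1 on U74Av2 (0.67, 0.047). Dnajc3 (log2 0.70) passed at the looser threshold. The Hspb1 probe sets did not pass under the other 11 of 16 alternatives. Their adjusted p was 0.38 without plus array 1, 0.42 with sample-number blocks, and 0.093 and 0.12 with no filter.

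Over both types, calls were lost for Hspa1b without moderation (log2 -0.86, adjusted p = 0.12), for Hspe1 with same-named arrays averaged (0.60, 0.054) and for Hsph1 without plus array 3 and minus array 2 (0.55, 0.32). With labels moved together for same-named arrays (chosen after the data were seen), the exact permutation test of the changes (-0.86, 0.67 and 0.60) gave p = 0.2, the smallest it allows. Leaving out single arrays gave Hspa1b -0.96 to -0.73, Hsph1 0.62 to 0.73 and Hspe1 0.56 to 0.65, all still past the threshold. Differences between the types, never past it, changed sign for Hspe1 under quantile normalization (0.0094) and for Hspa1b without plus array 3 and minus array 2 (0.018), and single arrays gave Hspa1b -0.45 to 0.16 and Hsph1 -0.23 to 0.045.

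Deviations of same-numbered plus and minus arrays from their group means had correlations from -0.70 to 0.16 over 2 pairs a type. The 2 minus arrays deviate from their own mean by equal and opposite amounts, so these values cannot show whether the numbers pair them. With the sample number as a block no member's call changed: over both types Hspa1b had adjusted p = 0.0015, Hsph1 0.0018 (log2 0.66) and Hspe1 0.0035 (log2 0.54), and limma called 1 probe set on U74Av2 and 0 on 430A (1318 unadjusted). Same-named arrays of the types deviated together (correlations 0.41 to 0.59 over 184 genes), where the 2 minus arrays again give 1 value. With array name as a random block (chosen after the data were seen) Hspa1b, Hsph1 and Hspe1 had adjusted p of 0.022, 0.028 and 0.015.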
